A study of Mus musculus with 20 samples.

Results

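The genes that encode the proteins of the cytosolic ribosome were followed in mouse cardiac fibroblasts before and after myocardial infarction. They were taken from the deposited gene table by symbol: Rpl or Rps followed by a digit, plus Rplp0, Rplp1, Rplp2, Rpsa and Fau. Of 102 matching symbols, 5 pseudogene symbols (-ps), 10 Rps6k kinase genes and 3 genes under 100 counts over all libraries were left out, which leaves 84 of 25746 genes in the table. The 3 low genes were Rpl10l with 0 counts, Rpl3l with 25 and Rpl39l with 51. Of the 84 members, 46 encode proteins of the large subunit and 32 proteins of the small subunit. The other 6 were kept because the rule names them: the paralogues Rpl7l1, Rpl22l1, Rpl36al and Rps27l, the retrogene Rps27rt, and Rps19bp1, which encodes a protein that binds Rps19.

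A ribosome reads mRNA on its small subunit and joins amino acids on its large subunit, and each subunit is built in the nucleolus from ribosomal RNA and ribosomal proteins. The mRNAs of these proteins begin with a terminal oligopyrimidine (TOP) tract, a C followed by a run of pyrimidines, through which their translation is set as a group by mTOR and the protein Larp1. Fibroblasts that divide or secrete matrix make many ribosomes, and the production of ribosomal components is one of the largest costs of cell growth.

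The cells were eGFP-positive cardiac fibroblasts traced from the Tcf21 lineage. Tcf21 is a transcription factor that marks the resident fibroblasts of the heart. A tamoxifen-inducible MerCreMer was switched on in all groups, uninjured mice included, with 75 mg/kg of tamoxifen a day for 5 days. The lineage mark shows descent and not the present state of a cell, and strain, age and sex are not given in the labels. RNA-seq was made from 10000 sorted cells a library, with 2 libraries for each of 5 groups: uninjured, then day 3, day 7, week 2 and week 4 after infarction. ATAC-seq, in which a transposase cuts accessible chromatin, had the same 5 groups of 2. The labels do not state whether a group's 2 libraries were made from different animals. The p-values therefore speak only to the spread among these libraries, part or all of which may be technical.

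The RNA libraries held 16397211 to 21043997 expected counts. Summed fibroblast markers (10 of 10 tested) ranged from 25017 to 71593 scaled counts (CPM) and were lowest in day 3 replicate 2, and the defining marker Pdgfra was at 147 to 778 CPM. Tcf21 itself was low, at 7.81 to 36.2 CPM. Mitochondrially encoded transcripts made up 4.21% of counts in week 2 replicate 1 and 0.987% to 2.71% in the other libraries. Week 2 replicate 2 has a library code beginning with B, where all other RNA libraries have C. Without that library the number of members called was 76 at day 3, 31 at day 7 and 0 at week 2, each against uninjured.

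In the fit of all genes, 14968 passed the filter on low counts, and all 84 members were among them. A gene was called where edgeR's quasi-likelihood test gave a Benjamini-Hochberg adjusted p under 0.05 over these 14968 genes. CPM here are counts scaled to a common total per library, corrected for composition by TMM. They are not divided by transcript length, so they are compared here only between libraries of the same gene.

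Nearly all promoters of the members with an entry were accessible in every group. RefSeq promoter entries (GRCm38.p6, 250 bases before to 50 after the start) were found for 64 members. In each of the 10 ATAC-seq peak lists, 63 of the 64 had a peak over the promoter, and these were the same 63 genes (98.4%). Among all genes tested in RNA, 86% (9479 of 11019 with an entry) had a promoter peak in all 10 lists. The exception was the retrogene Rps27rt, which had a peak in no list. The authors' fold enrichment of the members' promoter peaks had a median of 35.8 to 59.4 a list, and these medians lay at the 93.95 to 96.58 percentile of all peaks of their own list. Their summits lay at a median of 69 to 115 bases after the start, and at a median distance of 113 to 167 bases to either side. Of several peaks over a promoter the one with the highest fold enrichment was taken, and some summits lay far away. That of Rps16 was 28324 bases after the start in week 4 replicate 1, and that of Rps19bp1 9012 in uninjured replicate 1. Such values need not belong to the promoter, and the percentiles were not set beside those of other genes' promoters. Since the peaks were called in each library separately, only presence was compared between groups.

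Several of these promoters are printed because they carry the pyrimidine-rich start that defines TOP mRNAs, or differ from it. Each is given 5′ to 3′ on the gene's strand, from 80 bases before the RefSeq start through 20 bases of transcript. Capitals mark CTTTC on the printed strand, the letters searched here for a TOP tract. They also mark CGGAAG, the letters bound by ETS factors, on either strand (CTTCCG where it reads backwards). Rpl38, Rplp2 and Rpl28 have CTTTC within the bases of transcript printed, and Rpl38 has CGGAAG as well. In Rps6 and Rpsa the stretch printed has CGGAAG and no CTTTC. The Rps6 transcript as annotated still begins with a C and a run of pyrimidines, ctctttttc, a TOP tract that the letters CTTTC miss. In Rpsa CTTTC follows further into the transcript. Rps27 has both, and its retrogene Rps27rt has CTTTC only. The lines run chr11:114668500-114668599 (plus strand) for Rpl38, chr7:141447571-141447670 (plus) for Rplp2, chr7:4792885-4792984 (plus) for Rpl28, chr4:86857348-86857447 (minus) for Rps6, chr9:120127686-120127785 (plus) for Rpsa, chr3:90213629-90213728 (minus) for Rps27 and chr9:114982720-114982819 (minus) for Rps27rt.
Rpl38: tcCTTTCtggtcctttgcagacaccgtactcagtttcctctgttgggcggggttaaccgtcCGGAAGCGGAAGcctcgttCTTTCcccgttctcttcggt
Rplp2: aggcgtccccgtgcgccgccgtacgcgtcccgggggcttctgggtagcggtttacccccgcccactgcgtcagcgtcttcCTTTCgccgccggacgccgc
Rpl28: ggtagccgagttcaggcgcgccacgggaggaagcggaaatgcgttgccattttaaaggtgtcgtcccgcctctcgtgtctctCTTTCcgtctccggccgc
Rps6: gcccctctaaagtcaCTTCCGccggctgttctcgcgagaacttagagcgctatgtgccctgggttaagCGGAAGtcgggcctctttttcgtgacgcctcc
Rpsa: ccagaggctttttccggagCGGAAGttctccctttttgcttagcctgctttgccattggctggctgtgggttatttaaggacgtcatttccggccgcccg
Rps27: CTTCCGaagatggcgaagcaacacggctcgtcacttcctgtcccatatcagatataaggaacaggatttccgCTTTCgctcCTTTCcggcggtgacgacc
Rps27rt: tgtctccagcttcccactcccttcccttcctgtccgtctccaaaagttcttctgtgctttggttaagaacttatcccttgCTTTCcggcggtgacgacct

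Over the 75 promoter entries of the 64 members, CTTTC occurred on the sense strand between 25 bases before and 50 after the start in 46.7%, against 9.63% of all 32851 entries and 7.81% of those of tested genes. On the antisense strand of the same window it occurred in 10.7% of member entries and 9.39% of all entries, so the difference was seen on the sense strand only. CGGAAG on either strand of the 300 bases occurred in 61.3% of member entries, against 16.9% of all entries and 28.2% of those of tested genes. GGGCGG, the letters of SP1 sites, also on either strand, occurred in 62.7% against 59.9% of tested genes' entries. TATAAA, searched the same way, occurred in 9.33% of member entries and 7.74% of tested genes' entries. These motifs were searched by exact letters, and a match is a description of the sequence and not a bound site. Within the stretches printed, Rps27 and Rps27rt share a longest run of 19 bases, ctttccggcggtgacgacc. It begins at base 2 of the Rps27 transcript and base 1 of Rps27rt, as annotated. The run ends at the last base printed of Rps27, so its length is cut by the window. How far the 2 genes match beyond it was not looked at.

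At day 3 after infarction nearly the whole ribosomal protein family was higher than in uninjured fibroblasts. Of the 84 members, 75 rose and 0 fell by edgeR's test, against 7.39% of all genes tested that rose and 4.4% that fell. The median log2 fold change of the members was 1.32 (range 0.44 to 1.96), against −0.02 over all genes tested. Both day 3 libraries lay above both uninjured libraries for all 84 members, which was so for 29.5% of all genes tested. The rise passed 2-fold in 65 called members, against 6.16% of all genes. As these are bulk samples, a change in the number of cells of a type and a change in RNA per cell cannot be told apart.

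The 84 members together made up 1.83% and 2.09% of all counts in the uninjured libraries, 4.03% and 4.88% at day 3, and 3.01% and 3.35% at day 7. Week 2 stood at 1.81% and 2.26%, and week 4 at 1.93% and 1.78%. Both day 3 libraries were higher than all others, both day 7 libraries came next, and the week 2 libraries lay on both sides of the uninjured range. Week 4 replicate 1 lay within that range and week 4 replicate 2 below it. Reads that map to the many processed pseudogenes of these genes cannot be placed with certainty, and 88.1% of the members' values were not whole numbers, against 19.7% of those of other genes with 100 or more counts. Rows with a ribosomal pseudogene symbol held no more than 0.00215% of counts in any library. Rpl8, Rps21 and Rps19bp1, whose values were whole in every library, had log2 fold changes at day 3 of 1.00, 1.48 and 0.61.

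**Figure D1:**
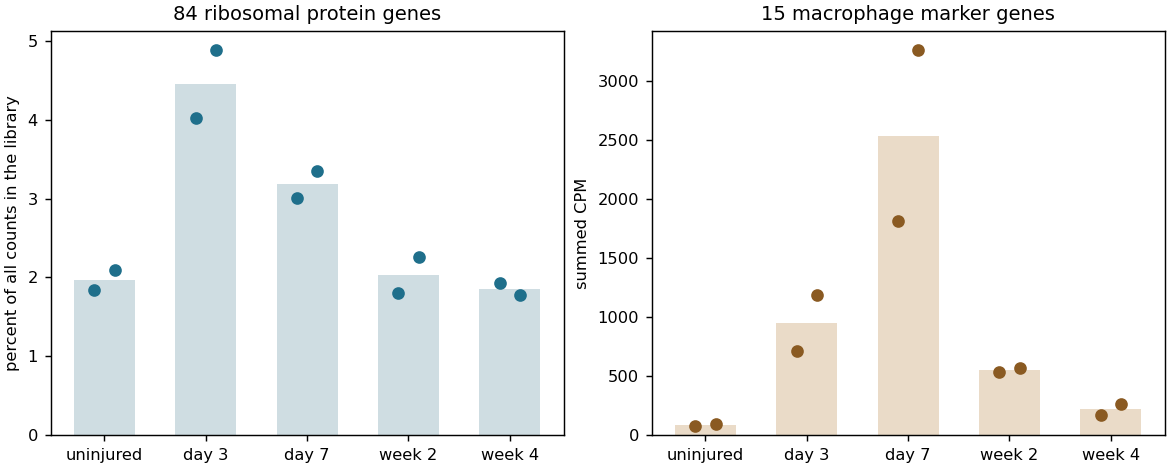
Left, share of all counts (percent) held by the 84 ribosomal protein genes in each RNA library, and right, the summed level of 15 macrophage markers (CPM), both by group on the horizontal axis, with 1 point a library and a bar at the mean of the 2. The ribosomal share peaks at day 3, at 4.03% and 4.88%, and the macrophage sum at day 7, at 1811 and 3261 CPM.

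Macrophage markers and cell-cycle genes were also higher at day 3. Summed over 15 macrophage markers, the level was 75.8 and 90.6 CPM uninjured, 711 and 1184 at day 3, and 1811 and 3261 at day 7. It was thus higher at day 7 than at day 3 while the ribosomal protein genes were lower. At week 2 it was 532 and 568 CPM and at week 4 172 and 264, each above both uninjured libraries. At day 3, 11 of the 15 rose and 0 fell, against 7.39% and 4.4% of all genes tested. The defining macrophage markers Csf1r and Adgre1 stood at 4.21 and 20.8 CPM and at 14.5 and 58.5 CPM at day 3. The part of these cells in the result was not tested. Of 20 cell-cycle genes 14 rose and 0 fell at day 3 (median log2 fold change 4.41), against the same 7.39% and 4.4%. The summed level of the 20 went from 299 and 325 CPM to 2406 and 2673 CPM, then 678 and 755 CPM at day 7. Whether cycling cells carry the difference was not tested. Endothelial markers, summed, went the other way, from 530 and 406 CPM uninjured to 190 and 123 CPM at day 3. Erythroid markers went from 4131 and 5982 CPM to 1204 and 142, pericyte and smooth muscle markers from 860 and 377 to 141 and 52.9, and cardiomyocyte markers from 184 and 225.3 to 89.7 and 46.0. Fibroblast markers went from 66236 and 67720 CPM to 40596 and 25017. Single fibroblast markers went both ways: of 10 tested, 3 rose and 5 fell, against 7.39% and 4.4% of all genes. Dcn went from 19797 and 24085 CPM to 8753 and 5118, and Col1a1 from 903 and 414 to 5886 and 3974. Of 12 cardiomyocyte markers 1 rose and 1 fell, against the same shares, and 11 had a negative estimate. Of 6 pericyte and smooth muscle markers 0 rose and 2 fell, and 2 had a positive estimate. Of 10 endothelial markers 0 rose and 5 fell, and all 10 had a negative estimate. Of 5 erythroid markers tested 0 rose and 0 fell, and all 5 had a negative estimate. Both day 3 libraries lay below both uninjured ones in each of these sums, and their part in the result was not tested.

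Among proteins of the small subunit, 29 of 32 genes rose at day 3 with a median log2 fold change of 1.43. Rpsa, which encodes a protein of the subunit's solvent side also known as the laminin receptor precursor, stood at 123 and 164 CPM uninjured, 554 and 563 at day 3, 270 and 367 at day 7, 146 and 134 at week 2, and 208 and 174 at week 4. Its day 3 libraries were alike and the highest, its day 7 libraries came next, and its later libraries lay near the uninjured ones. The log2 fold change at day 3 was 1.96 ± 0.23 (SE; edgeR, adjusted p = 0.00040), the largest of the family. Rps12 had 28.7 and 36.1 CPM uninjured and 120 and 116 at day 3 (log2 fold change 1.86 ± 0.29).

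Rps6, the subunit protein phosphorylated by S6 kinase downstream of mTOR, had 435 and 533 CPM uninjured and 1141 and 1275 at day 3. At day 7 it had 704 and 877 CPM, at week 2 486 and 499, and at week 4 565 and 451. Only the day 3 and day 7 libraries lay above the uninjured ones, apart from week 4 replicate 1, which lay just above the higher of them. The rise at day 3 was 1.32 ± 0.22 on the log2 scale (edgeR, adjusted p = 0.0023), which equals the family's median. Rps27a, made as a fusion with ubiquitin, rose by 1.50 ± 0.24, from 168 and 212 CPM to 514 and 559 CPM. Fau, which encodes a ubiquitin-like protein fused to Rps30, had 154 and 208 CPM uninjured and 280 and 348 at day 3, and its rise of 0.79 ± 0.22 was the smallest called in the small subunit (edgeR, adjusted p = 0.035). The call for Fau was lost in 7 alternatives: no filter, the 2 groups alone, and leaving out day 3 replicate 2, or 1 library of the uninjured or of the week 4 group.

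Rps27 and Rps29, both of the small subunit and with a zinc finger, were not called. Rps27 had 282 and 307 CPM uninjured and 315 and 484 at day 3 (log2 fold change 0.44 ± 0.29, edgeR adjusted p = 0.39), the lowest value of the family. Rps29 had 56.5 and 42.6 CPM uninjured and 72.8 and 200 at day 3 (1.46 ± 0.46, edgeR adjusted p = 0.065). For Rps29 the estimate was above the family's median but its day 3 libraries differed widely. Rps14 was the third small-subunit gene not called, at 0.81 ± 0.26 (edgeR, adjusted p = 0.067).

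In the large subunit 43 of 46 genes rose at day 3 with a median log2 fold change of 1.23. The stalk proteins, which recruit the elongation factors, were Rplp0, Rplp1 and Rplp2. Rplp0 had 842 and 1081 CPM uninjured, 2431 and 2626 at day 3, 1662 and 2078 at day 7, 1033 and 1089 at week 2, and 1114 and 1046 at week 4. Its day 3 and day 7 libraries lay above all the rest and did not overlap each other. The day 3 rise was 1.40 ± 0.22 for Rplp0, 1.29 ± 0.22 for Rplp1 and 1.48 ± 0.24 for Rplp2 on the log2 scale (edgeR, adjusted p = 0.0017, 0.0028 and 0.0023). Rplp0 and Rplp1 thus lay close to the family's median, and Rplp2 just above the family's upper quartile of 1.46.

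Rpl5 and Rpl11, which with 5S RNA form the particle that can bind Mdm2, rose by 1.58 ± 0.20 and 1.39 ± 0.21 on the log2 scale. Rpl5 had 249 and 264 CPM uninjured, 717 and 820 at day 3, 469 and 539 at day 7, 267 and 327 at week 2, and 248 and 233 at week 4. Rpl11 went from 149 and 166 CPM to 382 and 444 at day 3. In both genes every other library lay below both day 3 libraries.

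Rpl38, known for its part in the translation of Hox mRNAs in mouse embryos, had 32.9 and 30.6 CPM uninjured and 62.6 and 147 at day 3. It had 68.8 and 48.8 CPM at day 7, 28.9 and 57.2 at week 2, and 16.1 and 25.9 at week 4. Day 3 replicate 2 was far above every other library, and both week 4 libraries were the lowest. The rise of 1.72 ± 0.44 was called (edgeR, adjusted p = 0.025) and was lost without either uninjured library or without day 3 replicate 2. Rpl39, which lines the peptide exit tunnel, rose by 1.89 ± 0.35, from 33.3 and 34 CPM to 85.1 and 164, and this call too was lost without day 3 replicate 2. Rpl12, near the stalk base, rose by 1.76 ± 0.25, from 56.7 and 71.5 CPM to 185 and 248.

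Of the large-subunit genes, 3 did not pass the test at day 3: Rpl13, Rpl29 and Rpl37. Rpl13 had 817 and 1021 CPM uninjured and 1385 and 1448 at day 3 (log2 fold change 0.62 ± 0.21, edgeR adjusted p = 0.070). Rpl29, a member of the 60S subunit not essential for life in mice, had 13.5 and 60.5 CPM uninjured, 137 and 134 at day 3, and 42.5 and 244 at day 7. Its uninjured and day 7 libraries were spread so widely that a log2 fold change of 1.87 had an SE of 0.85 (edgeR, adjusted p = 0.23). Rpl37 stood at 1.01 ± 0.32 (edgeR, adjusted p = 0.061).

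**Figure D2:**
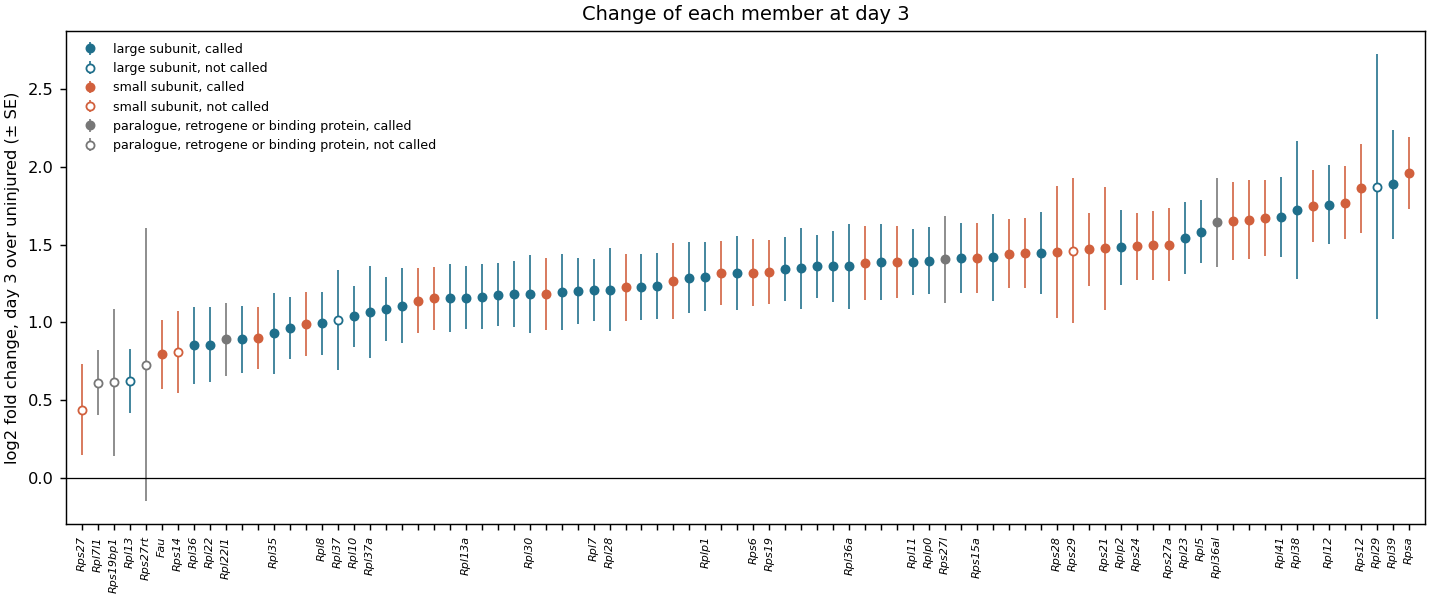
Log2 fold change at day 3 over uninjured (vertical axis; edgeR estimate, bars ± 1 SE) for the 84 members ordered by value along the horizontal axis, coloured by subunit, with the names of members given in the text and open points for the 9 that did not pass the test. All 84 points lie above 0, from 0.44 for Rps27 to 1.96 for Rpsa.

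Without day 3 replicate 2, the library with the highest level in 78 of the 84 members, 50 members were called at day 3 and the median log2 fold change was 1.13. Without day 3 replicate 1 there were 76, with a median of 1.40. All 84 fold changes stayed positive in all 18 fits that were made.

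The paralogues of ribosomal proteins are given beside their parents. Rps27l, a p53-regulated relative of Rps27, had 91.2 and 83.9 CPM uninjured and 201 and 263 at day 3, a rise of 1.41 ± 0.28 (edgeR, adjusted p = 0.0064) that was not called without uninjured replicate 2 or without day 3 replicate 2. Its counts were 32.3% and 27.3% of those of Rps27 in uninjured libraries, 63.9% and 54.4% at day 3, 31.3% and 50.2% at day 7, 30.1% and 31.9% at week 2, and 53.8% and 44.3% at week 4. The day 3 shares lay above all others, and the difference was not tested. Rps27rt had 4.42 and 4.72 CPM uninjured and 5.34 and 9.81 at day 3 (0.73 ± 0.88, edgeR adjusted p = 0.67). Its counts were 1.16% to 2.05% of those of Rps27, with which it shares the sequence shown above, so reads may have been placed on either copy.

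Rpl36al rose by 1.64 ± 0.29, from 53.2 and 56.7 CPM to 146 and 197, and its parent Rpl36a rose by 1.36 ± 0.27, from 79.7 and 85.6 CPM to 175 and 249. Rpl22l1 rose by 0.89 ± 0.23 and Rpl22 by 0.86 ± 0.24 on the log2 scale (edgeR, adjusted p = 0.026 and 0.036), and the call was lost for both without either uninjured library or without day 3 replicate 2. For Rpl22 it was lost in 9 alternatives, also with scaling by library total, with no filter, and without day 3 replicate 1, day 7 replicate 2 or either week 4 library. For Rpl36a it was lost without day 3 replicate 2. Rpl7l1, linked to the maturation of ribosomal RNA, had 129 and 135 CPM uninjured and 188 and 216 at day 3 (0.61 ± 0.21, edgeR adjusted p = 0.078), against a rise of 1.21 ± 0.20 for Rpl7. Counts of Rpl7l1 were 35.3% and 34.1% of those of Rpl7 in uninjured libraries, 21.9% and 23.8% at day 3, 25.8% and 24.5% at day 7, and 30.5% to 39.4% later. Both early times lay below all other libraries in this share, a difference that was not tested. Rps19bp1 stood at 18.6 and 12.3 CPM uninjured and 20.2 and 27.1 at day 3 (0.61 ± 0.47, edgeR adjusted p = 0.45).

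To see whether single members departed from the family, the fit was repeated with each library scaled to its summed ribosomal protein counts. On that scale 1 member was called at day 3, Rpsa, at 0.75 ± 0.24 above the family (edgeR, adjusted p = 0.029), against 1.88% of all genes higher and 33.9% lower. Of the 84 members, 72 lay within 0.5 log2 of the family's change and 7 had an unadjusted p under 0.05. Rps27 lay lowest, at −0.80 ± 0.31 (edgeR, adjusted p = 0.064). The call for Rpsa was lost without any 1 of the uninjured or day 3 libraries. The summed large-subunit counts were 1.64 to 1.88 times the small-subunit ones on the CPM scale, with the day 3 libraries at 1.69 and 1.64.

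At day 7 the family was still above uninjured but by less. Of the 84 members 26 rose and 0 fell, against 4.39% and 2.76% of all genes tested, with a median log2 fold change of 0.70. The comparison shares its uninjured libraries with that of day 3. In 80 members both day 7 libraries lay above both uninjured ones, as in 27.3% of all genes. By subunit, 16 of 32 small-subunit genes and 10 of 46 large-subunit genes rose, a difference that was not tested.

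The largest rises called at day 7 were those of Rpsa at 1.15 ± 0.23 and Rps12 at 1.12 ± 0.28 (edgeR, adjusted p = 0.010 and 0.031). Rps12 had 58 and 82.6 CPM at day 7, both above its uninjured libraries and below its day 3 ones. The smallest called were Rpl13a at 0.76 ± 0.20, Rps15a at 0.81 ± 0.22 and Rps19, a gene mutated in Diamond-Blackfan anaemia, at 0.82 ± 0.20. Rplp0 rose by 0.96 ± 0.21 and Rpl5 by 0.97 ± 0.20, whereas Rps6 stood at 0.71 ± 0.21 (edgeR, adjusted p = 0.069). The day 7 count rests on single libraries: it was 0 without uninjured replicate 1, 3 without uninjured replicate 2 and 0 without day 7 replicate 2, with medians of 0.62, 0.81 and 0.61.

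Between day 3 and day 7 the level was lower in 83 of 84 members by estimate, with a median log2 fold change of −0.56, but 0 members were called, against 0.555% of all genes called lower. By unadjusted p under 0.05 there were 51, against 2261 of the 14968 genes tested. DESeq2 called 5 members, and the share of all genes that it called is not given here for any contrast. Rpl12 came closest, at −1.08 ± 0.25 (edgeR, adjusted p = 0.057), from 185 and 248 CPM to 94.6 and 110. The exception in direction was Rpl29, at 0.08 ± 0.82. In 71 members both day 7 libraries lay below both day 3 libraries, as in 23.7% of all genes.

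From day 7 to week 2, 2 members fell, against 0.454% of all genes tested. Rpsa fell by 1.18 ± 0.23 and Rps24 by 1.12 ± 0.21 on the log2 scale (edgeR, adjusted p = 0.042 for both). Rps24, another small-subunit protein, had 212 and 300 CPM at day 7 and 119 and 116 at week 2, where uninjured libraries had 121 and 135. All 84 estimates were negative, with a median of −0.68. In 73 members both week 2 libraries lay below both day 7 ones, as in 22.6% of all genes. An unadjusted p under 0.05 was found for 61 members, against 2416 of the 14968 genes tested, and DESeq2 called 29 members. The edgeR count was 0 without day 7 replicate 2, without either week 2 library or without week 4 replicate 2, 1 without week 4 replicate 1, and 9 without day 7 replicate 1.

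At week 2 and week 4 no member was called against uninjured. At week 2 the median log2 fold change was 0.06 and the lowest adjusted p 0.68 (edgeR), against 1.44% of all genes called higher and 0.454% lower. There, 0 members had an unadjusted p under 0.05, against 1579 of the 14968 genes tested, and DESeq2 called 0 members. At week 4 the median was −0.05 and the lowest adjusted p 0.34 (edgeR), against 1.85% of all genes called higher and 0.474% lower. There, 2 members had an unadjusted p under 0.05, against 1905 of the 14968 genes, and DESeq2 called 0 members. From week 2 to week 4 the median was −0.13 with 0 members called by edgeR, against 0.454% of all genes higher and 0.154% lower. In that comparison 8 members had an unadjusted p under 0.05, against 2214 of the 14968 genes, and DESeq2 called 1 member. A test that called no member does not show that the levels were equal: the SE of Rplp0 at week 4 was 0.21 around an estimate of 0.17, and that of Rpl38 was 0.44 around −0.60.

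**Figure D3:**
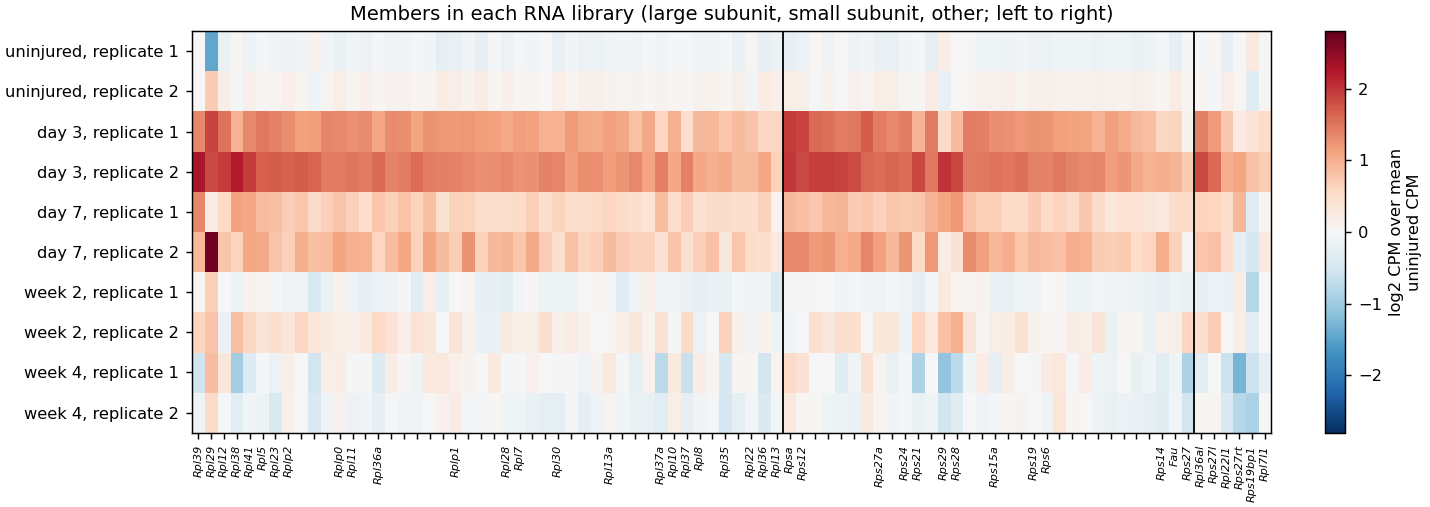
Log2 of each member's CPM over its mean CPM in the uninjured libraries (colour), with the 84 genes in columns, named where the text names them, and the 10 RNA libraries in rows. The day 3 rows are raised in nearly all genes, the day 7 rows less so, and the week 2 and week 4 rows lie around 0.

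Most members fell from day 3 to week 4. Of the 84 members 80 fell and 0 rose, against 7.52% and 5.84% of all genes tested, with a median log2 fold change of −1.34 (range −2.32 to −0.61). The largest falls were those of Rpl38 by 2.32 ± 0.45, Rps29 by 2.24 ± 0.48 and Rpl39 by 2.20 ± 0.35 (edgeR, adjusted p = 0.0060, 0.011 and 0.0022). Among those called, the smallest were Rpl7l1 by 0.69 ± 0.21, Rpl10 by 0.80 ± 0.19 and Rpl22 by 0.86 ± 0.24. Rps27, not called at day 3, fell by 1.13 ± 0.30 and reached 160 and 206 CPM at week 4, below both of its uninjured libraries (edgeR, adjusted p = 0.34 against uninjured). The comparison shares its day 3 libraries with the day 3 rise, and without day 3 replicate 2 it called 51 members.

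The order of group means was the same in most genes. Day 3 was highest in 83 members and day 7 in 1, Rpl29. In 82 members day 3 came first, day 7 second and all other groups below. The lowest group mean was week 4 in 50 members, uninjured in 19 and week 2 in 15, and these 3 groups were not told apart by the test in any member.

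The members differed in how their 2 libraries of a group compared. Replicate 2 was the higher library in 77 members uninjured, 79 at day 3, 66 at day 7, 74 at week 2 and 32 at week 4. The members' median log2 ratio of replicate 2 to replicate 1 was 0.21, 0.22, 0.23, 0.32 and −0.07 in that order. Over all genes tested, with 1 CPM added to each value, it was −0.005, −0.03, 0, −0.02 and 0. In 18 members day 7 replicate 1 was the higher of its pair, and these were looked at after their values were seen: Rpl22l1, Rpl23, Rpl30, Rpl35, Rpl36, Rpl36a, Rpl37, Rpl37a, Rpl38, Rpl39, Rpl41, Rplp2, Rps19bp1, Rps21, Rps27, Rps27rt, Rps28 and Rps29. In these 18 the median log2 ratio of replicate 2 to replicate 1 was 0.10 uninjured, 0.62 at day 3, 0.51 at week 2 and 0.31 at week 4, against 0.22, 0.17, 0.25 and −0.10 in the other 66. The 18 were thus higher in this ratio at day 3, week 2 and week 4 and lower in the uninjured group. At day 7, where they were picked by this ratio, it was −0.21 against 0.27. Their median log2 fold change was 1.27 at day 3 against 1.32 in the other 66, and −0.48 at week 4 against −0.01, each relative to uninjured. Across the 84 members the log2 ratios of replicate 2 to replicate 1 at day 3 and at day 7 had a Pearson correlation of −0.69. The same ratios correlated at 0.63 between uninjured and day 7 and at 0.59 between day 3 and week 2. Rpl29 had ratios of 2.17 uninjured and 2.52 at day 7, far above every other member in both. No correlation was computed without it. These are across genes that share the same libraries and their depths, and are given as a description.

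**Figure D4:**
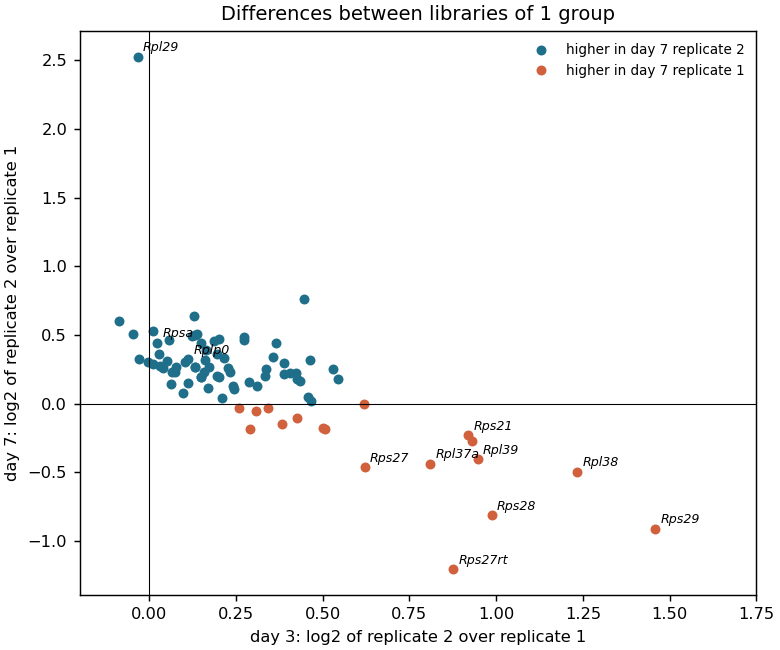
Log2 ratio of replicate 2 to replicate 1 at day 3 (horizontal axis) and at day 7 (vertical axis), 1 point for each of the 84 members. The 18 members below 0 on the vertical axis had a median of 0.62 on the horizontal axis, against 0.17 for the other 66.

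Other genes of translation were described from lists. A set of 20 genes, chiefly elongation and initiation factors with TOP mRNAs, had 14 higher and 0 lower at day 3 (median log2 fold change 0.97), against 7.39% and 4.4% of all genes. At day 7, 6 were higher and 0 lower, against 4.39% and 2.76%. From day 3 to day 7, 4 of the 20 were lower, against 0.555% of all genes, and from day 3 to week 4, 15 were lower, against 7.52%. These values were not tested against those of the ribosomal protein genes. Eef1a1, which brings aminoacyl-tRNA to the ribosome, had 2523 and 2921 CPM uninjured and 5787 and 4983 at day 3, a rise of 0.98 ± 0.23 (edgeR, adjusted p = 0.015). Rack1, a scaffold protein on the small subunit, rose by 1.68, from 158 and 196 CPM to 481 and 658. Eef1b2 and Eef1g, of the factor that recharges Eef1a1, rose by 1.81 and 1.72, and the nucleolar chaperone Npm1 by 1.81.

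Genes of ribosome assembly formed a list of their own. Of 36 such genes 6 rose and 0 fell at day 3 (median 0.68), against 7.39% and 4.4% of all genes tested. Among the 6 were Nhp2 and Dkc1 of the H/ACA particles that modify ribosomal RNA, at 1.86 and 1.23, Ncl (nucleolin) at 0.92 and Ltv1 at 1.07. At day 7, 0 rose and 2 fell, Nop58 by 1.54 and Rrs1 by 1.64, against 4.39% and 2.76% of all genes. The median was −0.20 where that of the ribosomal protein genes was 0.70. Of 14 genes of RNA polymerase I and the Myc family, Polr1d rose by 1.20 and Mycn fell by 5.15 at day 3, 1 gene in each direction against the same 7.39% and 4.4%. Myc, a transcription factor known to drive ribosomal genes, had 226 and 582 CPM uninjured and 328 and 210 at day 3 (−0.59 ± 0.50, edgeR adjusted p = 0.51). Its uninjured libraries were far apart, and the day 3 libraries lay between them and just below them.

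Of 18 genes of the mTOR pathway and TOP regulation, 3 rose and 2 fell at day 3, against 7.39% and 4.4% of all genes. Eif4ebp1, a translation repressor that mTOR switches off, rose by 1.38, Eif4g1 and Eif4e of the cap-binding complex by 1.07 and 0.88, and Deptor, an mTOR inhibitor, fell by 1.78. Larp1 stood at 0.62 ± 0.39 (edgeR, adjusted p = 0.36). These are transcript levels, and neither phosphorylation nor translation was measured.

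The ribosome of mitochondria is a separate machine with its own proteins, and 8 of its 78 genes rose and 0 fell at day 3, against 7.39% and 4.4% of all genes tested. Its median log2 fold change was 0.61 at day 3 and 0.12 at day 7, against 1.32 and 0.70 for the cytosolic family. Mrpl16, Mrpl54, Mrpl17 and Mrpl18 were among the 8, at 1.40, 1.33, 1.25 and 1.15. Of 42 nuclear genes of the respiratory chain 8 rose and 0 fell at day 3 (median 0.64), against the same 7.39% and 4.4%. Atp5g1 stood at 1.18 and Ndufa4 at 1.15. From day 3 to week 4, 28 of the 42 fell and 0 rose, against 7.52% and 5.84% of all genes.

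**Figure D5:**
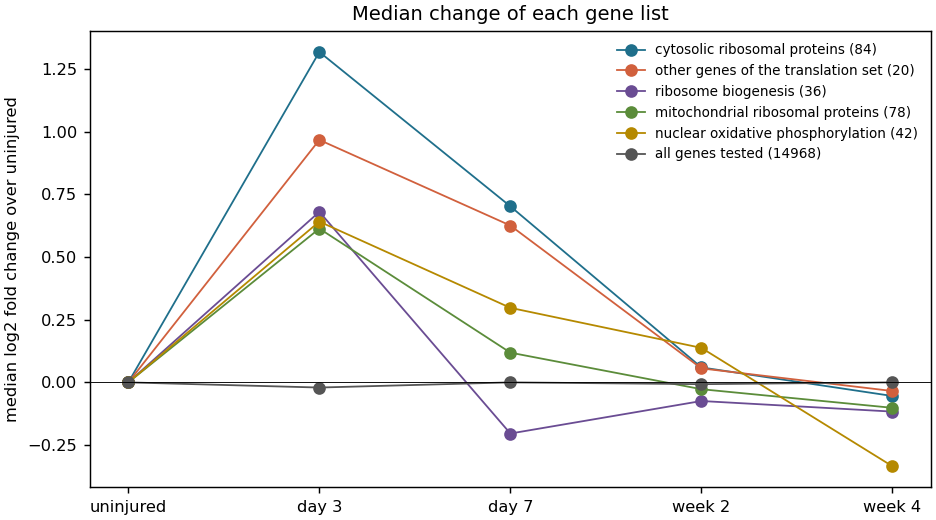
Median log2 fold change over uninjured (vertical axis) in each group (horizontal axis; uninjured set at 0) for the ribosomal protein genes, 4 other gene lists and all genes tested, with 1 line a list. The cytosolic family stands at 1.32 at day 3 and 0.70 at day 7, and the mitochondrial ribosomal genes at 0.61 and 0.12.

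The promoter letters were set beside the RNA values with no test. The 33 members with CTTTC near the start had a median log2 fold change of 1.33 at day 3 with 29 called, and the 31 without had 1.32 with 29 called. These letters do not separate members with a TOP tract from those without, as Rps6 is among the 31. For CGGAAG, 43 members with the letters had a median of 1.39 with 40 called, and 21 without had 1.18 with 18 called, a difference that was not tested. Rpsa, with the largest rise, and Rps27, with the smallest, both have CGGAAG in the sequences shown above, and each had a promoter peak in all 10 ATAC-seq libraries.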

How the data were processed

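RNA-seq and ATAC-seq each had 2 libraries from 5 groups, read from the sample titles. The deposited table holds expected counts per gene, read counts estimated per gene and not scaled between libraries, and 0 of its columns stayed unmapped. Per the submitters' processing notes, the tools were STAR 2.5.3a, Bowtie2 2.3, Trim Galore 0.6, MACS2, FastQC and DESeq2, named with no role, and the builds GRCm38 and mm10. Neither the counting program nor the counted strand is given in the sources used here. The deposited peak lists, 1 a library, give each peak a fold enrichment (a ratio), a −log10 p and a −log10 q, and a score. No source used here gives the peak thresholds.

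Counts were rounded and fitted in R 4.3.3 with edgeR 4.0.16 (limma 3.58.1): TMM scaling, filterByExpr by group, group as the factor over all 10 libraries, a quasi-likelihood fit with the robust option (residual degrees of freedom 5), and adjusted p under 0.05 by Benjamini-Hochberg over 14968 genes in each contrast. Each SE comes from that fit. The steps were tested on simulated counts. Library totals ran from 16397211 to 21043997, and PCR copies cannot be told from independent molecules, as the labels name no molecular identifiers. Alternatives were other scalings, no filter, DESeq2 1.42.0, the 2 groups alone, a replicate block and leaving out each library.

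A promoter was the RefSeq window (GRCm38.p6) from 250 bases before to 50 after the start, and any overlap with a peak counted. Its coordinates and the peaks are both on GRCm38. The other 20 members had no entry.

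The members and lists were chosen with earlier results of these data known. Named genes were the 6 members with the highest and the 6 with the lowest log2 fold change at day 3, the 3 and 3 at the ends of the called members in other contrasts, Rplp0, Rplp1, Rplp2, Rpsa, Fau, Rps6, Rpl5, Rpl11, Rps27a and Rpl38, paralogue pairs, members that are no structural protein, and up to 4 called genes of each list with Myc, Larp1, Eef1a1 and Rack1. Some genes that this rule takes are not reported here. Members not called at day 3 and some with whole values were named besides, after their values were seen.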

Additional observations from a re-analysis of the deposited data

Results flagged for a closer look

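The difference from uninjured was not the same at all times after infarction, by the edgeR contrast of the times themselves. Between week 4 and day 3 it differed in 80 members, all lower at week 4. Between week 2 and day 7 it differed in 2 members, Rpsa and Rps24, both lower at week 2. With 2 libraries a group, no group was large enough to look for a library that stands apart by its gap to the others.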

How the results depend on the processing

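At day 3 against uninjured the count of 75 members stayed within 1.5 times under the other scalings, no filter, DESeq2, the 2 groups alone and the replicate block, and was 50 to 76 over the fits without 1 library. Of the 75 calls, 50 were made in every one of those 10 fits. At day 7 against uninjured the 26 calls became 42 with DESeq2, 4 with the 2 groups alone and 0 to 31 without 1 library, with 0 made in every such fit. From day 3 to week 4 the 80 calls became 51 to 80 without 1 library, and 47 were made in every such fit. From day 3 to day 7 the 0 calls became 1 without the filter, 5 with DESeq2 and 0 to 1 without 1 library. From day 7 to week 2 the 2 calls became 13 without the filter, 29 with DESeq2, 0 with the 2 groups alone and 0 to 9 without 1 library. From week 2 to week 4 the 0 calls became 3 without the filter, 1 with DESeq2 and 0 to 2 without 1 library. At week 2 and at week 4 against uninjured, 0 members were called in any fit. On the scale of the family's own counts, the 1 departure became 2 without the filter and 0 to 2 without 1 library. The cause of these changes was not tested, beyond the smaller number of libraries in the fits that leave one out. For the 31 genes named at day 3, a call was lost in 28 pairs of a gene and an alternative, over 8 genes, gained in 3, and the direction turned in 0. The genes named at day 7 and from day 7 to week 2 lost their calls as the counts above show. Scaling moved the median of all genes by no more than 0.053 in any contrast. With the replicate block the counts were 75 at day 3, 30 at day 7, 80 from day 3 to week 4 and 2 from day 7 to week 2, and no other call count changed. Over all genes tested, deviations of same-numbered libraries correlated at −0.018 to 0.029. Such a correlation cannot show whether the replicate numbers pair the samples. Over the members alone, the log2 ratio of replicate 2 to replicate 1 correlated at 0.63 between uninjured and day 7, with Rpl29 far above all others in both. It correlated at 0.59 between day 3 and week 2, and at −0.69 between day 3 and day 7. Promoter peaks were found for the same number of members, 63, with a −log10 q of 10 or more and with 150 bases of overlap. In libraries of this depth the SE of the members' day 3 fold changes ran from 0.20 to 0.88 on the log2 scale.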

Other observations

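The replicate difference described for the 18 members was also looked for in other lists, after its values were seen. Day 7 replicate 1 was the higher library in 17 of 42 nuclear respiratory chain genes, 22 of 36 ribosome assembly genes and 8 of 20 genes of the other translation set. The median log2 ratio of day 3 replicate 2 to replicate 1 was 0.35, 0.34 and 0.16 in these lists. Over all genes tested, with 1 CPM added to each value, the median ratio was −0.03 at day 3 and 0 at day 7. The share of all genes higher in day 7 replicate 1 was not computed. Of the 18 members, 17 had a negative log2 fold change at week 4 against uninjured, and of the other 66 members 37 did. Among all genes tested, 7484 of 14968 did. None of these values was tested.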
